A study of Rattus norvegicus with 6 samples.

Results

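Astrocytes from the cerebral hemisphere of rats poisoned with carbon monoxide (CO) were compared with those of control rats (NC). They were chosen by the detection of marker genes, as barcodes, the tags of single droplets, with at least 1000 unique molecular identifiers (UMIs, 1 per captured transcript) and at least 1 UMI of 4 or more of 9 marker genes. The 9 markers were Aqp4, Gja1, Slc1a2, Slc4a4, Ntsr2, Agt, Itih3, Mlc1 and Gpr37l1. Barcodes were left out if they held more than 1 marker of microglia (P2ry12, Tmem119, Gpr34, Cx3cr1), of mature oligodendrocytes (Mog, Mag, Ermn), of endothelium (Cldn5, Flt1, Adgrl4) or of ependyma (Adgb, Tmem212). The rule also names Foxj1 for ependyma, a gene not analysed here. It found 954 barcodes of 42293 in all and of 34039 with at least 1000 UMIs. CO libraries held 178, 188 and 164 of them and NC libraries 154, 130 and 140.

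The CO rats breathed 1000 ppm carbon monoxide over 40 minutes in a closed chamber, followed by 3000 ppm over 20 minutes, as the series description states. Severe poisoning meant impaired consciousness and over 60% carboxyhemoglobin, hemoglobin occupied by the gas. NC rats are labelled as negative or normal controls, suspensions from 3 rats per group are described, and each group has 3 droplet libraries (10x Genomics). Fresh tissue of both groups was digested with trypsin and DNase I, which takes astrocytes out of their contacts before their RNA is captured. Strain, age, sex and the time between exposure and sampling are not given in the sources used here. Libraries held between 39494470 and 42975621 UMIs in the CO group and between 42448680 and 47322264 UMIs in the NC group.

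Astrocytes take up glutamate and potassium after neurons fire, move water through aquaporin-4 at their endfeet on blood vessels, and supply neurons with lactate and cholesterol. They share small molecules through connexin gap junctions and store the brain's glycogen. After injury they are known to raise Gfap and Vim, the genes of their intermediate filaments, and cytokines of the gp130 family that act through STAT3 are known drivers of that state.

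A feature of the libraries bears on every value here. Of all 42293 barcodes, 99.3% had at least 1 other barcode in their group whose detected genes were nearly the same, within a library or between libraries of that group. No such pair joined a CO and an NC barcode. Among the astrocytes 945 of 954 had such a near-copy. Near-copies were grouped at a similarity of detected genes of 0.75, which left 382 distinct astrocyte profiles, 212 in CO and 170 in NC. Most profiles, 240, had 3 barcodes. Of these, 57 were spread over 3 libraries, 151 over 2 libraries, and 32 lay within 1 library. A pair of astrocyte barcodes within a profile shared a median of 78.5% of its detected genes (72.7 to 85.7%, 812 pairs), against 17.7% for other pairs of the same group (4.6 to 50.7%, 229049 pairs). Of the barcode sequences themselves, 1 occurred in more than 1 library over 15 pairs of libraries. How the near-copies arose was not tested.

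The 3 libraries of a group therefore do not hold separate cells. Each distinct profile was counted once, by giving its barcodes equal parts of 1, and UMIs were then summed per group. A group is treated as 1 sample, so no p-value is given between CO and NC. Levels are in CPM, counts scaled to 1000000 UMIs, and ratios are log2 of CO over NC, so that a positive value is higher in CO. Brackets hold exact 95% intervals, which cover counting error of UMIs or profiles and not the variation between rats. Intervals of gene ratios take each UMI as a separate draw, so they also leave out the variation between cells. The value of each library is shown as well, with the reservation that the libraries of a group share profiles.

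Markers that the rule did not use were set against microglia as a limited check of the label, since the rule itself leaves out microglia. Ependymal cells, oligodendrocytes and their precursors were not compared in this way, so the label was not checked against them. Of cells thinned to 2000 UMIs each, Aldoc, a glycolytic enzyme of astrocytes, was detected in 78.0% of CO and 78.4% of NC astrocytes, against 1.98% of CO and 1.24% of NC microglia, which should lack it. S100b, a calcium-binding protein, was found in 85.5% of CO and 83.1% of NC astrocytes, against 3.98% and 2.6% of microglia of the same groups. Without thinning the Aldoc shares were 86.6% of CO and 87.0% of NC astrocytes, and those of S100b were 92.7% and 89.3%. Slc1a3, a glutamate transporter, did not separate the cells as well, with 83.0% of CO and 86.5% of NC astrocytes against 46.8% and 39.3% of microglia. Aldh1l1, a folate enzyme, was found in 11.4% of CO and 10.2% of NC astrocytes and in at most 0.0349% of microglia. Ttr, which the choroid plexus makes in large amounts, was found in 44.8% of thinned CO and 76.6% of thinned NC astrocytes, close to the 46.6% and 72.9% in microglia, and is read as background RNA. Of the 9 markers of the rule, 115 CO and 83 NC astrocytes had all 9, and 63 CO and 23 NC astrocytes had just 4. At the edge of the rule, barcodes with 4 markers had a median of 5900 UMIs in CO and 3066 in NC. Those just outside it, with 3 markers, numbered 102 in CO and 82 in NC, with medians of 11034.5 and 13127.5 UMIs.

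Markers of other cells were present at low levels. Microglial markers made up 0.0684% of astrocyte UMIs in CO and 0.0785% in NC, with library values of 0.0436 to 0.0989% in CO and 0.0468 to 0.148% in NC. At least 3 of the 13 microglial markers in the files were detected in 12.7% of CO and 5.66% of NC astrocytes. At least 3 of 11 oligodendrocyte markers were detected in 10.8% of CO and 14.9% of NC astrocytes, and at least 3 of 9 ependymal markers in 6.47% of CO and 3.56% of NC astrocytes. Choroid plexus markers took 0.937% of UMIs in CO and 1.47% in NC, and ranged from 0.0485 to 1.85% over CO libraries and from 0.112 to 1.74% over NC libraries. Of the defining markers of other cells, Gpr17 of oligodendrocyte precursors and Lum of fibroblasts were at 0. To see how much the results below depend on such barcodes, they were also computed in a core of 383 CO and 342 NC barcodes. Core barcodes had at least 6 of the 9 markers, at most 4 markers each of microglia and oligodendrocytes and at most 2 of any other cell type, limits chosen after the data had been seen. The core held 72.0% of CO and 80.6% of NC astrocytes. Barcodes outside it were deeper, above all in CO, with medians of 8463 UMIs in CO and 5056.5 in NC. Core barcodes had medians of 5007 and 4168 UMIs. As UMIs are summed, barcodes outside the core weigh more in CO than in NC. A ratio over all astrocytes can therefore lie outside the ratios of both parts.

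Astrocytes made up 3.34% of CO and 2.41% of NC profiles with at least 1000 UMIs (2.9 to 3.84% and 2.05 to 2.8%). Library values were 3.38%, 3.64% and 3.03% in CO, and 2.6%, 2.36% and 2.26% in NC, so the groups did not overlap. The ratio of the shares was 1.39 (1.12 to 1.73). CO astrocytes were also deeper, with a median of 5253 UMIs and 2050.5 genes per barcode, against 4195 UMIs and 1774 genes in NC astrocytes. A deeper cell shows more markers, and the rule counts markers. When every barcode was thinned to 2000 UMIs before the rule was applied, the share was 2.69% in CO and 2.36% in NC, a ratio of 1.14 whose interval includes 1 (0.892 to 1.45). A share also rises when another class falls. With profiles counted by these weights, mature oligodendrocytes were 488.8 of 5856 in CO and 1256 of 6610 in NC. The parts of depth and of other classes in the ratio of shares were not tested.

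Of 8400 genes compared, with at least 30 UMIs and a mean log2 CPM of at least 4, 309 (3.68%) were at least 2-fold higher in CO astrocytes and 305 (3.63%) at least 2-fold lower. The median log2 ratio was -0.02, but the scaling of the groups holds the typical ratio near 0. It cannot show whether the typical gene changed. Many of these genes rested on few cells or are genes of other cells. For 89 of the 309 and 65 of the 305, over 25% of the UMIs in the higher group came from 1 profile. For 180 and 94 of them, another cell class of the same group had at least 4 times the level. In the core, 140 of the 143 higher genes that could be measured kept their direction and 94 stayed at least 2-fold higher, against 51.6% and 3.45% of all genes measured there. Of the lower genes, 202 of 203 kept their direction in the core and 133 stayed at least 2-fold lower, against 48.4% and 3.81%. Core barcodes are part of the same astrocytes, so this shows which genes rest on the other barcodes and is no second measurement.

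Among broadly detected genes, several that glucocorticoids are known to induce were far higher in CO astrocytes. Fkbp5, a co-chaperone that binds Hsp90 and dampens the glucocorticoid receptor, had 219, 308 and 322 CPM in the CO libraries, against 36.6, 38.9 and 28.0 CPM in the NC libraries. All CO libraries were above all NC libraries, and the log2 ratio was 3.12 [2.55, 3.74]. Such a lack of overlap, in either direction, was found for 30.4% of the genes with a mean log2 CPM of at least 5, so it does not mark a gene out. It was seen in 114 of 212 CO and 21 of 170 NC profiles. At 2000 UMIs per cell, 35.1% of CO and 7.24% of NC astrocytes had Fkbp5, and 31.8% of CO and 10.6% of NC microglia had it. Without thinning these shares were 52.2% and 11.1% in astrocytes. In the core the log2 ratio was 3.40.

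Metallothioneins, small proteins that bind zinc and copper, were higher as well. Mt2A had 1125, 1335 and 1513 CPM in CO libraries, against 388, 292 and 293 CPM in NC libraries, a log2 ratio of 2.17 [1.97, 2.36]. Mt1 had 584, 538 and 558 CPM in CO libraries, against 87.6, 104 and 132 CPM in NC libraries, a log2 ratio of 2.41 [2.09, 2.74]. Groups did not overlap for either gene. Mt3, the metallothionein of brain cells, was already abundant in NC and less far apart, with 2409, 2791 and 3042 CPM in CO against 1825, 1646 and 1776 CPM in NC libraries (log2 ratio 0.67 [0.58, 0.76]). The Mt2A difference was spread over many cells, as the median profile had 523 CPM in CO and 26.4 CPM in NC, and 166 of 212 CO and 85 of 170 NC profiles held at least 1 UMI. Reads of Mt1 and Mt2A, which are close paralogs, may be split between them by the authors' counting. Ependymal cells had more Mt1 than astrocytes (2537 CPM in CO and 565 CPM in NC), and 35 CO and 14 NC astrocytes held 3 or more ependymal markers. The part of those barcodes in the Mt1 ratio was not tested beyond the core, where it was 2.02. Of the 7 measured genes in the list of metallothioneins and zinc handling, 5 were higher and 2 lower. The median of that list was 0.20, and its lowest member was Slc39a12, at -0.49.

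Mt1, Mt2A and Mt3 were all higher in CO, by unlike amounts, and the 250 bases before their starts are shown (RefSeq, build GRCr8, minus strand of chromosome 19, written 5′ to 3′ towards the gene). Capitals mark TGCGCNC on either strand, the letters of the metal response element that the zinc sensor MTF1 is known to bind in metallothionein promoters.
Mt1, chr19:10832976-10833225: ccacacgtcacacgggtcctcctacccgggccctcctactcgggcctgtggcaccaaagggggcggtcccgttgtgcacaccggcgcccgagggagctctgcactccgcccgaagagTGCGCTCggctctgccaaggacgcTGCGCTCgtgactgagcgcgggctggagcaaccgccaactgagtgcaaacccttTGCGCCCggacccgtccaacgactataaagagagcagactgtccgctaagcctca
Mt2A, chr19:10838709-10838958: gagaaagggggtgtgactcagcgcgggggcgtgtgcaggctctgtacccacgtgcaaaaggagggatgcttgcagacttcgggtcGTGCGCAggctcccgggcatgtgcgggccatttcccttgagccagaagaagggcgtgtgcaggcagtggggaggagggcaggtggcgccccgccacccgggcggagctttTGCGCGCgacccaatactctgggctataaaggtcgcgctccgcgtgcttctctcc
Mt3, chr19:10856081-10856330: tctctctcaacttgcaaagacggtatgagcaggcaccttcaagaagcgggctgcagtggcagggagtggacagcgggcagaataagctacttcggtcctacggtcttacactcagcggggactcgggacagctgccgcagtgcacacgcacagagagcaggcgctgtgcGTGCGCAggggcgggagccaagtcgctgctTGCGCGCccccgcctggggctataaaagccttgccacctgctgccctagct
Mt1 held 3 matches, which begin 133, 109 and 55 bases before the start. Mt2A held 2, at 165 and 55 bases, and Mt3 held 2, at 81 and 51 bases. At least 1 match was found in 11.8% of 33469 rat promoters of this length, at least 2 in 2.82% and at least 3 in 0.595%. Mt3 has the motif but had the smallest ratio of the 3 genes. These are matches of letters, and nothing here measures binding.

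Of the 25 listed glucocorticoid-induced genes, 19 were measured in astrocytes, 14 of them higher and 5 lower in CO, with a median log2 ratio of 0.53 beside -0.02 over all genes compared. At least 2-fold higher were Fkbp5, Mt1, Mt2A, Errfi1, Cdkn1a and Pdk4, and none was 2-fold lower. Errfi1, a feedback inhibitor of the EGF receptor, had 144, 223 and 245 CPM in CO libraries against 77.1, 69.1 and 78.5 CPM in NC libraries, a log2 ratio of 1.51 [1.10, 1.93]. NC microglia had at least 4 times the Errfi1 level of NC astrocytes, and the log2 ratio in microglia was -0.12. Below 2-fold, Tsc22d3, which encodes the anti-inflammatory protein GILZ, had a log2 ratio of 0.89 and Zbtb16, a transcription factor, one of 0.78. The kinase gene Sgk1 was at -0.63 and the phosphatase gene Dusp1 at -0.74. In the core 13 of 17 were higher, with a median of 0.89. Over all other barcodes the median of the list was 0.27, with 16 of 23 members higher.

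**Figure D1:**
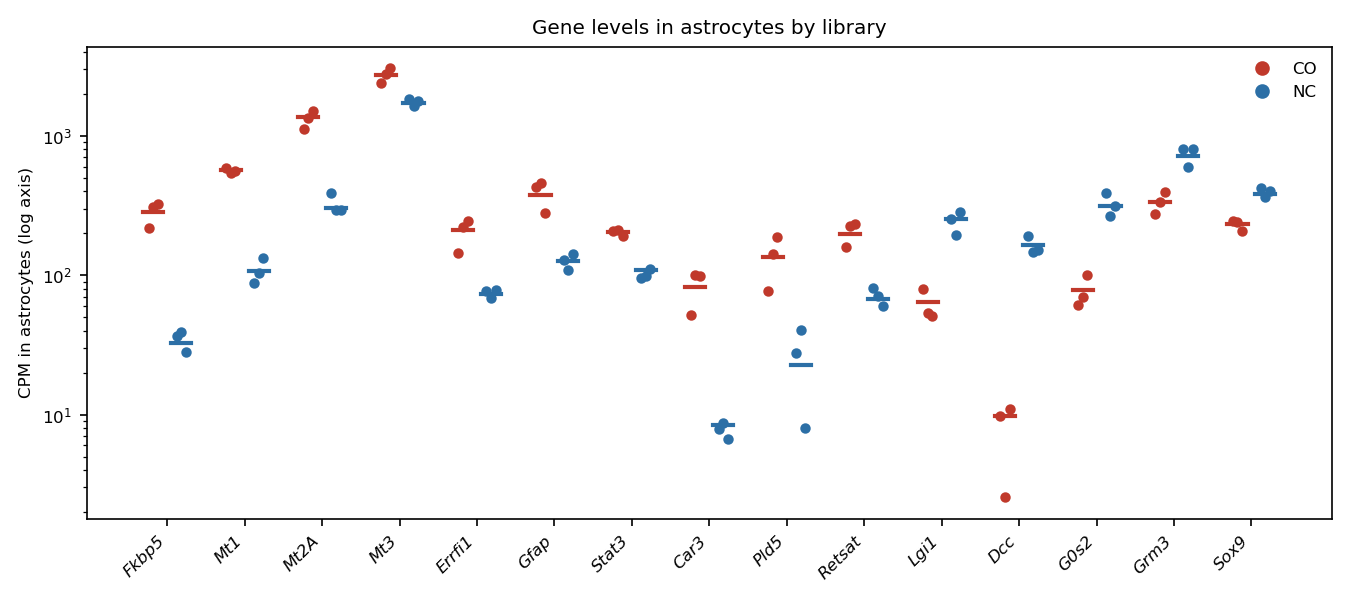
CPM of 15 genes in the astrocytes of each library on a log axis, with CO (red) left of NC (blue). Points are the 3 libraries of a group, which share profiles, and the line is the value of the group with each profile counted once. Fkbp5 is at 283 CPM in CO and 32.6 CPM in NC, and Dcc, in the other direction, at 9.81 CPM in CO and 164 CPM in NC.

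Several genes outside these lists were also higher in many CO profiles. Car3, carbonic anhydrase III, had 51.8, 100 and 98.4 CPM in CO libraries, against 7.85, 8.64 and 6.66 CPM in NC libraries, a log2 ratio of 3.29 [2.19, 4.64]. It was seen in 52 CO and 8 NC profiles. Over all other barcodes its log2 ratio was 0.14, and ependymal cells had 97.4 CPM of it in CO and 104 CPM in NC. Pld5, a member of the phospholipase D family, had 77.0, 142 and 188 CPM in CO against 27.5, 40.3 and 7.99 CPM in NC libraries (log2 ratio 2.58 [1.89, 3.36]). It was found in 73 of 212 CO and 7 of 170 NC profiles, and was at -0.45 over all other barcodes. In endothelial cells Pld5 was at 2.71 [1.33, 4.43], at levels of 4.62 CPM in CO and 0.71 CPM in NC. In microglia (0.61 [-0.14, 1.40]) and mature oligodendrocytes (0.56 [-0.34, 1.44]) the intervals include no change.

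Retsat, which saturates retinol, had 160, 223.5 and 235 CPM in CO libraries and 81.1, 70.6 and 59.9 CPM in NC libraries, a log2 ratio of 1.55 [1.13, 1.99]. Mrpl41, a protein of the mitochondrial ribosome, had a log2 ratio of 1.75 [1.31, 2.23] and was at -0.12 over other barcodes. Igtp, an interferon-inducible GTPase, was at 2.16 [1.46, 2.94], with 106, 142 and 57.0 CPM in CO against 24.8, 28.8 and 13.3 CPM in NC libraries. Microglia had 241 CPM of Igtp in CO and 225 CPM in NC, with a log2 ratio of 0.10, and more CO than NC astrocytes held 3 or more microglial markers. The part of those barcodes in the Igtp ratio was not tested beyond the core, where it was 2.64. Retsat, Mrpl41 and Igtp were picked in the core after their values were seen, by no overlap of library values. They also had a minimum of 20 CO profiles and at most 25% of CO UMIs in 1 of them. These limits were set in the higher group alone, so the profile counts of such genes are no separate support. Tcerg1l, picked in the same way, had the highest ratio of that choice, at 4.66 [2.39, 8.86]. It had 20 CO profiles and 1 NC profile, and a level of 40.7 CPM in CO and 1.61 CPM in NC. Over all other barcodes Tcerg1l was at 2.80 [2.04, 3.64].

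Histone genes made up 4 of the 12 highest ratios. Hist1h1b was at 3.95, Hist1h1c at 3.69, Hist2h2ac at 3.13 and Hist1h1e, a linker histone, at 3.05 [2.49, 3.66]. Hist1h1e was held by 58 CO and 23 NC profiles, with 33.8% of its CO UMIs in 1 profile, and the other 3 by 9, 32 and 9 CO profiles in the order just given. Outside the core Hist1h1e was at 4.43, in the core at 0.94 and over all other barcodes at 1.49. Cycling markers took 0.0879% of astrocyte UMIs in CO and 0.0708% in NC, and their part in the histone ratios was not tested.

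Genes of reactive astrocytes gave a mixed picture. Gfap, the intermediate filament that marks reactive and white matter astrocytes, had 432, 458 and 279 CPM in CO libraries, against 129, 109.5 and 142 CPM in NC libraries, a log2 ratio of 1.56 [1.25, 1.88]. It was detected in 82 of 212 CO and 44 of 170 NC profiles, and in the core the log2 ratio was 1.68. Vim, its partner in the filament, had 665, 776 and 662 CPM in CO against 323, 285 and 582 CPM in NC (0.90 [0.71, 1.09]). Most Vim came from barcodes outside the core, which had 1411 CPM in CO and 1157 CPM in NC, against 139 CPM in CO and 58.8 CPM in NC core cells. Ependymal cells had 4730 CPM in CO and 3779 CPM in NC. Crym, a thyroid hormone-binding protein of some astrocytes, was at 2.33 [1.73, 2.99], although only 20 CO and 6 NC profiles had it and 48.0% of its CO UMIs lay in 1 profile. Timp1 was at 2.40 and S100a10 at 1.74, yet 52.6% of the Timp1 UMIs and 38.1% of the S100a10 UMIs in CO came from 1 profile each. With 5 or more astrocyte markers required, the Timp1 ratio turned round to -0.79.

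Of 13 pan-reactive genes 7 were measured, 5 of them higher and 2 lower. Of 12 genes known as A1, which were first listed in mice given lipopolysaccharide, 5 were measured, with 3 higher and 2 lower. The 2-fold higher ones were Fkbp5 and Srgn, and Amigo2 was lower, at -1.54. Of 13 A2 genes 4 were measured, and all 4 were higher, with only S100a10 past 2-fold. Of 11 genes of glia limitans and white matter astrocytes, which include Gfap, Vim, Crym and Igfbp5, 10 were higher and 1 was lower, with a median of 0.54 in all astrocytes and 0.65 in the core. This held for core cells with fewer UMIs of Agt than of Mfge8 (8 of 8 higher, median 1.69), whereas in those with more Agt 2 of 7 were higher, with a median of -0.23. Sox9, a transcription factor that maintains astrocyte identity, was lower, with 245, 240.5 and 208 CPM in CO against 421, 361.5 and 402 CPM in NC libraries (-0.72 [-0.95, -0.49]).

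The series title names CLCF1, a cytokine that signals through CNTFR, LIFR and gp130, the product of Il6st. Clcf1 itself was at the limit of detection in astrocytes, at 3.23 CPM in CO and 2.01 CPM in NC, with 2 profiles in each group, and a difference could not have been detected at this depth. Of the receptors, Lifr had 151.5, 275 and 261 CPM in CO libraries against 142.5, 121 and 98.5 CPM in NC libraries, a log2 ratio of 0.95 [0.61, 1.31], while over all other barcodes it was at -0.50. Cntfr (0.11 [-0.19, 0.42]) and Il6st (0.43 [-0.33, 1.23]) had intervals that include no change. Stat3 had 207, 212 and 191 CPM in CO and 95.5, 97.9 and 110.5 CPM in NC libraries, without overlap (0.90 [0.55, 1.26]). Its feedback target Socs3 was seen in 1 CO and 2 NC profiles and could not be compared. Osmr, the oncostatin M receptor, had 12.4 CPM in CO from 9 profiles and no UMI in NC. With NC set to a floor of 3 UMIs over the group it was 3.43-fold higher in CO, a value that rests on the floor. It had under 30 UMIs and is not among the measured genes. Of the 14 measured genes of this list 9 were higher and 5 lower, none above the expression minimum passed 2-fold, and the median was 0.21, with 0.45 in the core.

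For NF-kappaB, the other name in the title, 22 of 37 listed genes were measured, 10 higher and 12 lower. Il1b (-5.25), Cxcl2 (-5.76) and Ccl3 (-2.45) were far lower in CO, but 71.4%, 99.4% and 66.1% of their NC UMIs came from 1 profile each. CO microglia had 540, 311 and 3875 CPM of these genes. In the core Il1b was still at -3.79 [-5.43, -2.50] and Ccl3 at -1.31 [-2.03, -0.62], while Cxcl2 had too few UMIs there. Il1b was held by 7 CO and 6 NC profiles and Ccl3 by 27 CO and 24 NC profiles. Nfkb1, a subunit, was at 0.84 and Rela at 0.66, the inhibitor Nfkbia at 0.29 and the deubiquitinase Tnfaip3 at -1.71. In the core, the 12 measured members split 6 to 6, with a median of -0.10. Among 12 measured interferon-stimulated genes, 7 were higher and 5 lower, B2m being the most abundant (0.74 [0.64, 0.85]). Isg15 was at -2.77 with 83.4% of its NC UMIs in 1 profile, and turned to 0.41 without the highest 6% of doublet scores.

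Genes lower in CO astrocytes included receptors and channels. Dcc, the netrin-1 receptor, had 9.72, 2.55 and 11.0 CPM in CO libraries against 192, 147 and 150 CPM in NC libraries. Its log2 ratio was -4.06 [-5.02, -3.23], and 7 of 212 CO and 52 of 170 NC profiles held it. It was -5.33 in the core and 0.04 over all other barcodes. Oligodendrocyte precursors, of which 48 barcodes were found, had 42.4 CPM in CO and 39.8 CPM in NC, above CO astrocytes and below NC astrocytes. Lgi1, a secreted protein of synapses, had 80.2, 53.5 and 50.6 CPM in CO against 255, 194 and 285 CPM in NC libraries (-1.97 [-2.35, -1.60]), whereas over all other barcodes it was at 1.15. Kcnc2, a voltage-gated potassium channel subunit, was at -2.06 [-2.52, -1.62] and Fam19a4, a secreted peptide, at -1.93 [-2.48, -1.39].

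G0s2, an inhibitor of triglyceride lipase, had 61.6, 69.7 and 100 CPM in CO libraries, against 388, 266 and 313 CPM in NC libraries (-2.02 [-2.37, -1.68]). Its log2 ratio was -2.16 in microglia, -2.72 in mature oligodendrocytes, 0.20 [-0.13, 0.53] in endothelial cells and -0.65 over all other barcodes. Adra2a, the alpha-2A adrenergic receptor, had 9.72, 10.2 and 11.0 CPM in CO against 48.4, 46.1 and 45.3 CPM in NC (-2.13 [-3.14, -1.22]). Over all other barcodes Adra2a was at -2.97 [-3.99, -2.08], at levels of 0.27 CPM in CO and 2.09 CPM in NC. Gucy1a2, a subunit of soluble guanylate cyclase, the heme enzyme that senses nitric oxide and can bind CO, had 40.5, 34.0 and 41.4 CPM in CO against 131, 105 and 145 CPM in NC (-1.65 [-2.17, -1.15]). It was held by 36 CO and 54 NC profiles. Adra2a and Gucy1a2 were picked in the core after their values were seen, by no overlap of library values. They also had a minimum of 20 NC profiles and at most 25% of NC UMIs in 1 of them. Their library values and profile counts are thus no separate support. Tango6 (-2.10), Prkch (-1.89) and Tagln (-2.13) were also among the lowest, and CO endothelial cells had at least 4 times as much Prkch and Tagln as CO astrocytes.

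**Figure D2:**
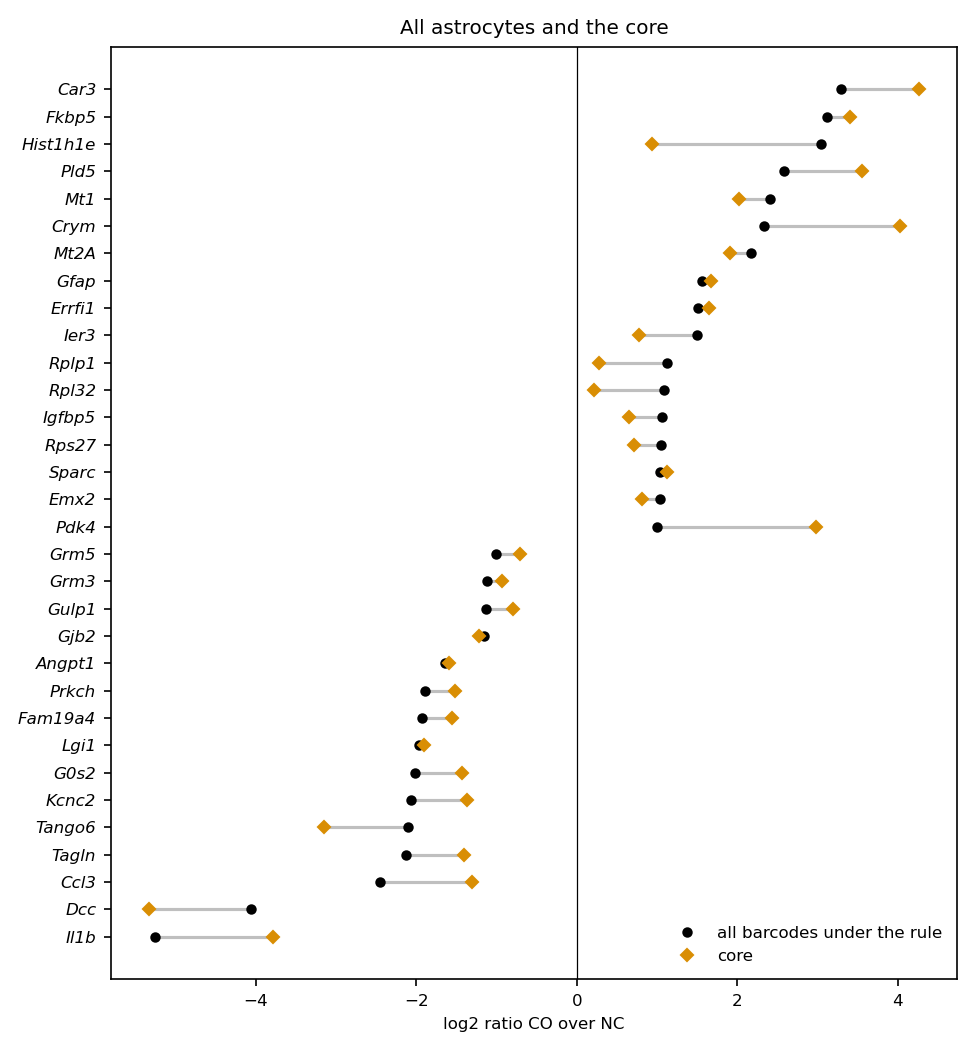
Log2 ratio CO over NC of 32 named genes that are at least 2-fold apart and were measured in the core, for all astrocytes (black) and for the core (orange). All 32 lie on the same side of 0 in both, and 22 of them are at least 2-fold apart in the core. Pdk4, Crym and Pld5 are farther from 0 in the core, and Hist1h1e, Ier3 and Rpl32 nearer.

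Most homeostatic genes of astrocytes were slightly lower in CO, and few passed 2-fold. Of 25 genes of potassium and transmitter clearance, 20 were lower and 5 higher in CO, with a median of -0.25 and 2 members past 2-fold. Those were Grm3, the main metabotropic glutamate receptor of adult astrocytes, with 273, 335 and 396 CPM in CO against 811, 596 and 807 CPM in NC libraries (-1.12 [-1.30, -0.94]), and Grm5 (-1.01 [-1.35, -0.67]). The glutamate transporter Slc1a2, a marker of the rule, was at -0.25 and the bicarbonate cotransporter Slc4a4, another, at -0.19. In the core the median of this list was 0.01 with 13 of 25 higher, though Grm3 stayed at -0.93. Grm3 was also lower over all other barcodes (-1.55) and in mature oligodendrocytes (-0.64), which had 1322 CPM in CO and 2054 CPM in NC. Of 14 genes of water transport, gap junctions and endfeet, 12 were lower, with a median of -0.37 in all astrocytes and -0.15 in the core. Aqp4, Gja1 and Mlc1 of this list helped to choose the cells, and Aqp4 and Mlc1 were its higher members. Gjb2, connexin 26, was at -1.15 [-1.79, -0.53], the endfoot anchor Dmd at -0.86 and laminin Lama2 at -0.82, while Aqp4 was at 0.08 and Gja1, connexin 43, at -0.33. Over 34 astrocyte markers that the rule did not use, 13 were higher and 21 lower, with a median of -0.13, against 0.11 in the core. The sign of these small medians thus depends on which barcodes are counted.

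**Figure D3:**
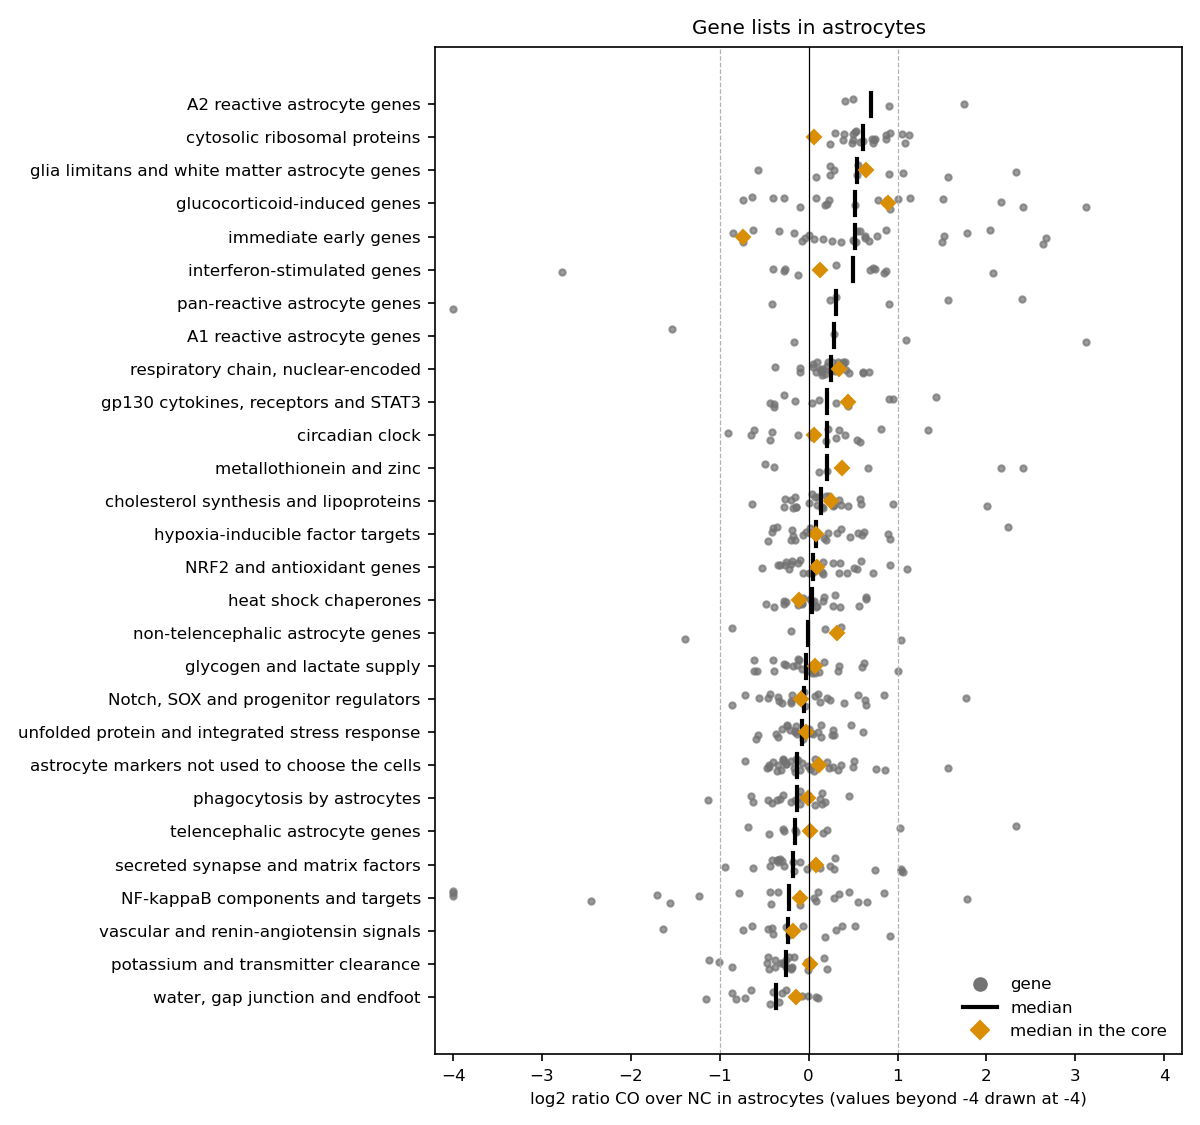
Log2 ratio CO over NC in astrocytes of the measured genes (grey) of 28 lists, with the median of each list (black line) and its median in the core (orange, where at least 5 members were measured). Values under -4 are drawn at -4 and dashed lines mark 2-fold. Medians run between -0.37 for endfoot genes and 0.70 for the 4 measured A2 genes. Immediate early genes are the list whose core median lies farthest from its median in all astrocytes, at -0.74 beside 0.52.

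Ribosomal protein genes were higher in CO astrocytes as a whole and less so in the core, and respiratory chain genes were slightly higher in both. Of 31 nuclear-encoded genes of the respiratory chain 28 were higher in CO, none 2-fold, with a median of 0.25 in all astrocytes and 0.34 in the core, where again 28 of 31 were higher. Over all other barcodes 9 of 31 were higher, with a median of -0.09. In microglia 23 of 31 were higher, with a median of 0.07, and in endothelial cells 16 of 31, with a median of 0.003. Cox6c had a log2 ratio of 0.61 and Uqcr10 one of 0.68. All 21 measured ribosomal protein genes were higher in CO, 3 of them at least 2-fold (Rplp1, Rpl32 and Rps27), with a median of 0.61, but in the core 13 of 21 were, with a median of 0.07, and outside the core all 21 were, with a median of 0.50. Ribosomal protein genes were also higher in other cells, with 22 of 22 over all other barcodes (median 0.25) and 20 of 21 in microglia (0.19). In endothelial cells 12 of 21 were higher (0.03). The 24 genes of glycogen and lactate supply split 12 to 12, with a median of -0.04. Among them Pdk4, which shuts pyruvate out of mitochondria, was at 1.00 [0.26, 1.81], with overlap between libraries, at 2.98 in the core and at -0.87 outside it. Of 27 genes of cholesterol synthesis and lipoproteins, 19 were higher and 8 lower, with a median of 0.14, and 22 of 26 were higher in the core.

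Hypoxia-inducible factor targets showed no common shift, with 16 of 26 higher and a median of 0.08. Vegfa, the best known of them, was lower, with 592, 757 and 737 CPM in CO against 1016, 845 and 1108 CPM in NC libraries (-0.45 [-0.59, -0.32]), and Slc2a1, the glucose transporter, was at -0.20. Pgk1 was at 0.47, and Ndrg1, seen in 19 CO and 7 NC profiles, at 2.25. NRF2 and antioxidant genes had a median of 0.05 with 16 of 27 higher, and here Fth1, the ferritin heavy chain that stores iron, was at 0.91 [0.85, 0.97] with 8353, 5641 and 4776 CPM in CO against 3269, 2824 and 3762 CPM in NC libraries. Ependymal cells had 27010 CPM of Fth1 in CO and 18500 CPM in NC, and in the astrocyte core its ratio was 0.77. Heat shock chaperones (median 0.03, 13 of 23 higher) and genes of the unfolded protein response (median -0.07, 11 of 25 higher) were near the median of all genes.

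Immediate early genes, which cells switch on within minutes of a stimulus, were the list that depended most on the choice of barcodes. Over all astrocytes 21 of 28 were higher in CO, with a median of 0.52 and 6 members past 2-fold. In the core 6 of 20 were higher and the median was -0.74. Core cells with more UMIs of Agt than of Mfge8 had 4 of 18 higher and a median of -1.58, and the other core cells 12 of 13 and a median of 0.67. Single genes differed likewise, with Egr1 at 0.63 in all astrocytes and -1.46 in the core, and Fos at 0.58 and -0.79. Outside the core 17 of 26 were higher, with a median of 0.28.

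Genes by which astrocytes act on neighbouring cells were also set out by list. Of 22 measured genes of secreted synapse and matrix factors, 8 were higher and 14 lower in CO, with a median of -0.17. Past 2-fold were Sparc, a matrix protein that restrains synapse formation, at 1.03 [0.88, 1.19] and held by 157 CO and 113 NC profiles, Igfbp5, which binds insulin-like growth factors, at 1.07 [0.84, 1.30], and the proteoglycan Vcan at 1.04. The Vcan ratio turned to -0.19 without the highest 6% of doublet scores. Of 20 phagocytosis genes 6 were higher and 14 lower, and the engulfment adaptor Gulp1 was at -1.13 [-1.48, -0.78], with the receptor Megf10 at -0.42. Of 14 vascular and renin-angiotensin genes 5 were higher and 9 lower. Angpt1, a ligand of the endothelial receptor Tie2, had 72.1, 42.5 and 28.5 CPM in CO libraries against 193.5, 114 and 102.5 CPM in NC libraries, without overlap (-1.64 [-2.12, -1.17]), and its log2 ratio in the core was -1.59. The endothelin receptor Ednrb was at -0.63. Of 25 Notch, SOX and progenitor regulators 11 were higher, and of 16 clock genes 10 were higher and 6 lower, with Per2 at 0.82 [0.31, 1.35] and Npas2 at -0.91 [-1.12, -0.70].

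Astrocytes of both groups varied in Agt, the precursor of angiotensin, and Mfge8, a bridging protein for phagocytosis. Of core cells, 78.5% in CO and 73.6% in NC had more UMIs of Agt than of Mfge8. These are called Agt-rich, and the other core cells Mfge8-rich. Agt is a marker of the rule, so cells with it are favoured by the choice, and the cut divides a range, with 12.3% of CO and 20.5% of NC core cells within 2-fold of equal UMIs. In mice Agt is known to mark astrocytes of the diencephalon and brainstem, and Mfge8 those of the telencephalon. Of single telencephalic regulators, Emx2 was at 1.03 [0.36, 1.75] and Lhx2 at 0.20 [-0.15, 0.57]. At 2000 UMIs per cell, a non-telencephalic regulator (Irx1, Irx2, Irx3, Irx5, Zic1 or Zic4) was held by 11.2% of CO and 10.2% of NC astrocytes, a ratio of 1.10 (0.511 to 2.42). A difference in these regulators was thus not detectable at this depth, and the interval allows one of over 2-fold. Vim was at -1.25 in Agt-rich and 3.83 in Mfge8-rich core cells, and the difference between these ratios was not tested.

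**Figure D4:**
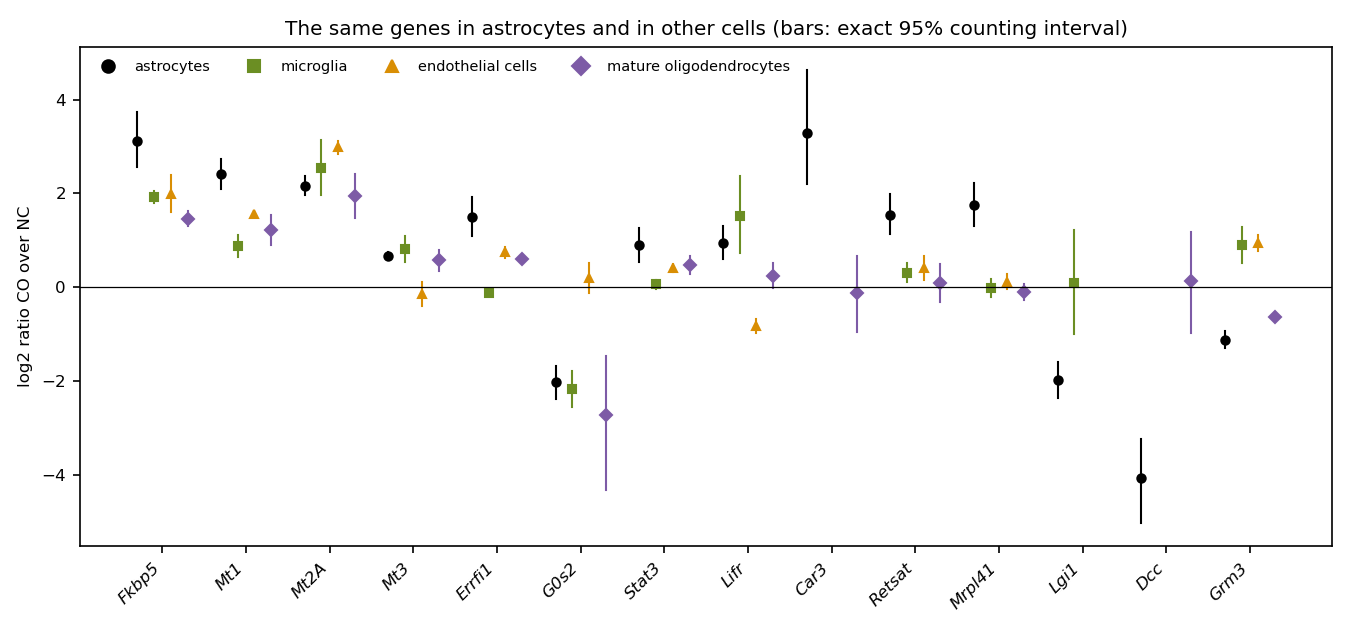
Log2 ratio CO over NC of 14 genes in astrocytes (black), microglia (green), endothelial cells (orange) and mature oligodendrocytes (purple), with exact 95% counting intervals. Cell classes with too few UMIs of a gene have no point. Fkbp5, Mt1 and Mt2A lie above 0 in every class shown, and Retsat and Mrpl41 lie nearer to 0 in the other classes than in astrocytes.

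Set against other cells, the astrocyte differences were partly shared. Fkbp5 had a log2 ratio of 3.12 in astrocytes, 1.93 in microglia and 1.47 in mature oligodendrocytes. Mt2A was at 2.53 in microglia and 2.99 in endothelial cells, and Mt1 at 1.56 in endothelial cells. Of the 309 genes at least 2-fold higher in CO astrocytes, 27 were also at least 2-fold higher over all other barcodes, where 1.97% of the compared genes were. Of 303 lower genes measured there, 26 were at least 2-fold lower, where 1.5% of genes were. Astrocyte barcodes are not among those other barcodes, but both come from the same libraries and carry the same background RNA. Whether these ratios differ between cell classes beyond counting error was not tested over rats, since each group is 1 sample.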

How the data were processed

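The authors deposited raw UMI counts per gene and barcode for 6 libraries, not normalized. Reads were mapped with Cell Ranger to Rnor_6.0, per the submitters' processing notes, with no version given in the sources used here. No mitochondrially encoded gene was among the genes analysed. The cells, gene lists and tests were chosen with earlier results of these data known.

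Near-copies were found from the overlap of detected genes, and each distinct profile was given a weight of 1 in all. This departs from the plan, which summed every barcode once, and was decided after the data had been seen. Weighted counts were summed per group and scaled to CPM with TMM factors. A gene was measured with at least 30 UMIs over both groups. Counts of 0 were set to 3 UMIs over the group. Ratio intervals come from the exact binomial distribution and shares carry Clopper-Pearson intervals (scipy 1.17.1). On counts of the 8400 genes compared, simulated with counting error only, 199 of 200 genes changed 4-fold were called, and 64 unchanged genes. Variation between cells and between rats was not simulated, so the 64 do not estimate the false calls in the data.

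Named genes were the 12 highest and 12 lowest ratios with a mean log2 CPM of at least 5 and no overlap of library values, the markers of the rule, up to 4 members of each list, and fixed gp130 and region genes. Others are said to be chosen after their values were seen. Doublets were not removed, and Scrublet scores (scanpy 1.11.5) served an alternative. Background RNA was not subtracted. Alternatives across libraries used edgeR 4.0.16 and DESeq2 1.42.0 on barcodes summed per library. Some genes under this rule, and a share that needs one of them, are not reported here.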

Additional observations from a re-analysis of the deposited data

How the results depend on the processing

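With at least 10 UMIs and no minimum CPM, 860 genes were higher and 580 lower, and 9 lists had a median of at least 0.5 in size, against 5 lists as reported. Thinned to 2000 UMIs per cell, 145 were higher and 149 lower. With the mean over cells of per-cell CPM, 3 lists passed that size. With every barcode counted once, 289 genes were higher and 319 lower, and 7 lists passed. In the core, 243 were higher and 268 lower, of 7044 genes compared there, against 8400 in all astrocytes. The number of genes compared changes with the setting, so these counts alone do not show more or fewer differences. Leaving out 1 library gave between 334 and 372 higher genes, 309 and 342 lower genes, and 3 and 7 lists. The ratio of the astrocyte share of barcodes then lay between 1.34 and 1.42, and that of the share of astrocytes with a non-telencephalic gene between 0.952 and 1.36. Timp1 turned to -0.79 with at least 5 astrocyte markers, Isg15 to 0.41 and Vcan to -0.19 without the highest 6% of Scrublet scores, and the median of the immediate early genes to -0.74 in the core. The cause was not tested. Of the 50 named genes at least 2-fold apart, none that could be measured changed direction with another scaling or without 1 library. They were taken for large ratios in these same data, and the highest and lowest also for no overlap of libraries. A change of direction was therefore unlikely from the start, and its absence is no support for them.

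Across libraries treated as replicates, 8413 genes were tested. Past an adjusted p of 0.05, edgeR without a replicate block gave 110 genes at least 2-fold higher and 128 lower. With the replicate block it gave 55 and 77, and DESeq2 gave 127 and 155. Such p-values are too small, since the libraries of a group share profiles. Same-numbered CO and NC libraries did not deviate together (correlations of -0.159, 0.006 and 0.081). Because the libraries of a group share profiles, this cannot show whether the numbers pair the samples.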
